A study of Rattus norvegicus with 6 samples.

Results

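A set of 5 G protein-coupled receptors reads neuropeptides that cortical interneurons and perivascular nerves release, and these genes were followed across both mural cell types of the rat brain. They are Npy1r and Npy5r, the Y1 and Y5 receptors for neuropeptide Y (NPY), and Vipr1, Vipr2 and Adcyap1r1, which encode the VPAC1, VPAC2 and PAC1 receptors for vasoactive intestinal peptide (VIP) and pituitary adenylate cyclase-activating peptide (PACAP). The members were taken by gene symbol, and all 5 of them were among the 14607 genes of the table. Messenger RNA was sequenced in 3 samples of vascular smooth muscle cells (VSMCs) and 3 samples of mid-capillary pericytes (mcPCs), freshly sorted from the cortex of male Sprague-Dawley rats aged 4 to 5 weeks. VSMCs came from arterioles held back by a mesh filter after mild digestion. These arterioles were then digested again with Liberase TM and trypsin, a step that mcPCs did not undergo. VSMCs were retained for their binding of a lectin once CD31+ and CD11b+ cells were gone. mcPCs were what remained of the filtrate after cells carrying CD31, CD11b, GLAST or O4 had been removed, so no marker of their own was used to take them. The cortices of several rats were pooled in each isolation, and each of the labels DN, DL and DK occurs once among the VSMC titles and once among the mcPC titles. Reads assigned to genes came to 62.0 M for each VSMC sample and to 48.0 M for each mcPC sample, where M stands for 1000000.

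NPY is a constrictor of cerebral arterioles, and Y1, which couples to Gi proteins, is the receptor best known for that effect in vascular smooth muscle. Y5 shares this coupling and is best known for its part in hypothalamic feeding circuits. VIP and PACAP relax cerebral vessels through VPAC1, VPAC2 and PAC1, which couple mainly to Gs, raise cyclic AMP and thereby act on protein kinase A, Epac proteins and potassium channels. VPAC1 and VPAC2 bind VIP and PACAP about equally well, whereas PAC1 strongly prefers PACAP.

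The values are the authors' means of each cell type, so no SD between isolations can be given and no test was run on them. The authors' own fold changes and tests were not used. It is unknown whether single samples of the 2 cell types overlapped. Levels are in transcripts per 1000000 transcripts (TPM), which are scaled to gene length. Ratios are log2 ratios of the mean normalized counts of mcPCs over VSMCs, without a pseudocount, and a negative ratio means a lower value in mcPCs. Intervals in brackets are 95% intervals from the number of reads and cover counting error only. In sorted bulk samples, fewer cells that express a gene and less RNA per cell cannot be told apart. Nor can cell type be told apart from the second digestion, which only VSMCs underwent.

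The fractions carried the markers of their labels. All 8 smooth muscle markers were at least 2-fold lower in mcPCs, their summed level going from 45203 TPM in VSMCs to 82.3 TPM in mcPCs (181 TPM without the erythrocyte genes described next), with Tagln, an actin-binding protein of smooth muscle, as the most abundant. Of 8 pericyte markers 7 were at least 2-fold higher in mcPCs and the other, Ifitm1, was within that limit. These counts stand beside 13.9% of all genes lower and 22.0% higher by the same limit. The lists were chosen with earlier results of these data known, and the paper names several of these markers from the same data. The counts therefore describe the fractions and are no independent check of their identity. The pericyte sum was 840 TPM in VSMCs against 4370 TPM in mcPCs (9601 TPM without the erythrocyte genes), and its most abundant gene was Vtn in VSMCs and Ptn in mcPCs. Erythrocyte RNA was also present. The 12 genes of the erythrocyte list found in the table, led by the globin gene Hba-a1, held 0.718% of all TPM in VSMCs and 54.4% in mcPCs. This lowers the TPM of other genes in mcPCs. For this reason the mcPC levels of the 5 receptors and the sums over receptors and over marker lists are given below also after these 12 genes were left out of the total. The list missed 4 haemoglobin rows with a further 12.5% of the TPM of mcPCs, so mcPC levels given without the 12 genes are still lowered. With these rows left out too, a scale added after seeing the data, Npy1r had 14.05 TPM in mcPCs and Adcyap1r1 6.60 TPM. Levels of single signalling genes and of other receptors are TPM as deposited unless another basis is named.

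Npy1r, Npy5r and Vipr2 were lower in mcPCs than in VSMCs. Adcyap1r1 was higher in mcPCs. Vipr1, with few reads in either cell type, was higher in mcPCs by normalized counts and slightly lower there by TPM as deposited. With a limit of 2-fold on the normalized counts, 3 of the 5 genes were lower and 2 were higher. Over all 14607 genes 13.9% were at least 2-fold lower in mcPCs and 22.0% at least 2-fold higher.

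**Figure D1:**
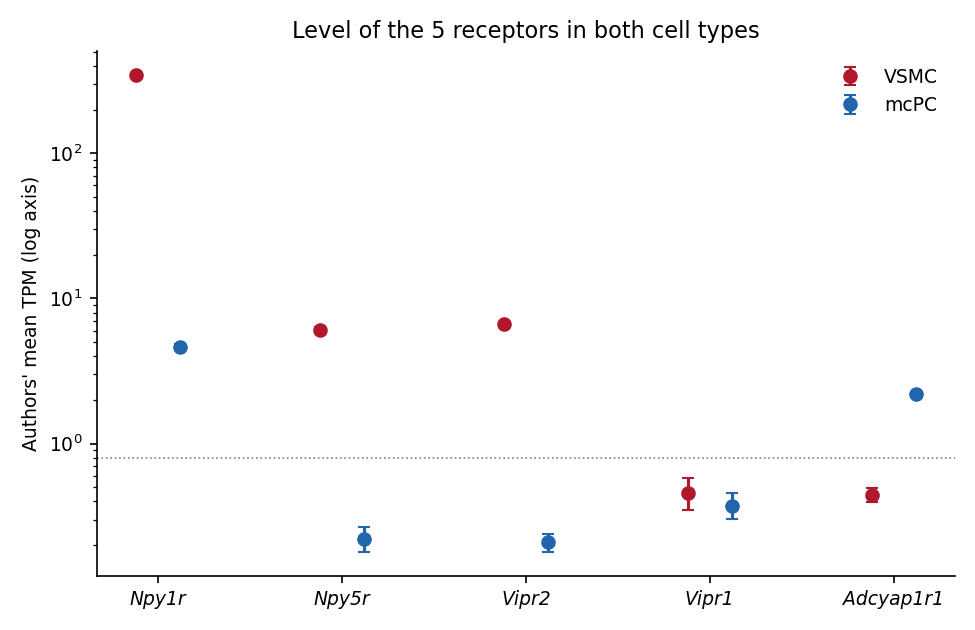
Authors' mean TPM of the 5 receptors on a log axis in VSMCs (red) and mcPCs (blue), with bars for the 95% counting interval, which are often smaller than the points. The dotted line marks 0.8 TPM. Npy1r stands far above the others in VSMCs at 346 TPM, As deposited, Npy5r and Vipr2 pass the line in VSMCs only, Adcyap1r1 in mcPCs only and Vipr1 in neither, but without the erythrocyte genes Vipr1 reaches 0.821 TPM in mcPCs.

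Npy1r encodes the Y1 receptor. Its level was 346 TPM [344 to 348] in VSMCs, from 36151 reads per sample, and 4.64 TPM [4.46 to 4.83] in mcPCs, from 780 reads per sample. Without the erythrocyte genes the mcPC level was 10.2 TPM. Npy1r thus led the 5 genes in both cell types, although its margin was much wider in VSMCs. Its log2 ratio was -4.42 [-4.48 to -4.36], a value 21.4-fold lower in mcPCs. Only 1.16% of all genes had a lower ratio.

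What remained of Npy1r in mcPCs was 4.66% of its VSMC value by normalized counts. The smooth muscle markers Acta2, Myh11 and Cnn1 kept 0.393%, 0.306% and 0.342% of theirs on the same scale. Acta2 encodes smooth muscle actin, Myh11 the smooth muscle myosin heavy chain and Cnn1 calponin. Tagln, Lmod1 and Myocd kept from 0.385% to 0.706%, Des 2.49% and Smtn 17.9%. The share kept by Npy1r was therefore above that of 7 of the 8 smooth muscle markers and below that of Smtn.

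Npy5r encodes the Y5 receptor and lies next to Npy1r in the genome. Its level was 6.05 TPM [5.76 to 6.35] in VSMCs, from 543 reads per sample. In mcPCs it was 0.220 TPM [0.181 to 0.266], from 35.7 reads per sample, or 0.484 TPM without the erythrocyte genes. It was abundant in neither cell type. In mcPCs it was under 0.8 TPM on both bases, a limit that the study set for low expression in VSMCs and that is used here for both cell types. Its log2 ratio was -2.97 [-3.27 to -2.69], a value 7.84-fold lower in mcPCs, where 12.8% of the VSMC value was left. The interval of this ratio does not reach that of Npy1r.

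Within the NPY receptors of the table the share of each gene does not depend on how the cell types are scaled to each other. Npy1r made up 98.3% of their summed TPM in VSMCs and 95.5% in mcPCs. Npy1r was 57.2 times as abundant as Npy5r in VSMCs and 21.1 times as abundant in mcPCs, both as ratios of TPM. The sum of the pair was 352 TPM in VSMCs against 4.86 TPM in mcPCs, or 10.7 TPM in mcPCs without the erythrocyte genes. The other NPY receptor genes Npy2r, Npy4r and Npy6r had no row in the table, where each gene needed at least 1 read in every sample.

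Vipr2 encodes VPAC2. Its level was 6.67 TPM [6.45 to 6.90] in VSMCs, from 1099 reads per sample, and 0.209 TPM [0.180 to 0.240] in mcPCs, from 63.0 reads per sample. The mcPC level was 0.458 TPM without the erythrocyte genes. Its log2 ratio was -3.25 [-3.47 to -3.04], 9.53-fold lower in mcPCs, and 10.5% of the VSMC value was left there. Vipr2 thus stood with Npy5r in both level and ratio. In VSMCs its level was 1.10 times that of Npy5r and their counting intervals did not overlap, whereas in mcPCs their intervals overlapped.

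Adcyap1r1 encodes PAC1. Its level was 0.443 TPM [0.396 to 0.494] in VSMCs, from 105.5 reads per sample, and 2.18 TPM [2.10 to 2.26] in mcPCs, from 980 reads per sample. Without the erythrocyte genes its mcPC level was 4.79 TPM. It was the only one of the 5 with a higher TPM in mcPCs as deposited, and its log2 ratio of normalized counts was 4.09 [3.93 to 4.26], 17.1-fold higher in mcPCs. A higher ratio was seen for 4.16% of all genes.

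Vipr1 encodes VPAC1. Its level was 0.454 TPM [0.350 to 0.580] in VSMCs and 0.374 TPM [0.303 to 0.455] in mcPCs, from 21.3 and 32.7 reads per sample. These TPM intervals overlapped. Its log2 ratio of normalized counts was 1.53 [1.07 to 2.01], 2.90-fold higher in mcPCs, but the log2 ratio of TPM as deposited was -0.28, the opposite direction. Without the 12 erythrocyte genes its mcPC level was 0.821 TPM and the log2 ratio of TPM was 0.84. Its level was under 0.8 TPM in both cell types as deposited, and just over it in mcPCs without these genes. Without the other haemoglobin rows too it was 1.13 TPM in mcPCs.

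Among the VIP and PACAP receptors the leading gene differed between the sorted fractions. Vipr2 made up 88.2% of their summed TPM in VSMCs and 7.55% in mcPCs. Adcyap1r1 made up 5.85% of that sum in VSMCs and 78.9% in mcPCs. The share of Vipr1 was 6.0% in VSMCs and 13.5% in mcPCs. Adcyap1r1 had 0.443 TPM in VSMCs, under the 0.8 TPM filter that the study used against transcripts of unwanted cells. The part of other cell types in its mcPC level was not tested. The sums themselves were 7.57 TPM in VSMCs against 2.76 TPM in mcPCs as deposited. Their order depends on the scale, since without the erythrocyte genes they were 7.64 and 6.07 TPM, and without the other haemoglobin rows too, a scale added after seeing the data, 7.65 and 8.36 TPM. As normalized counts per 1000 bases they were 219 and 276. On each TPM scale both were far below the NPY receptor sum of VSMCs. In VSMCs, Npy1r was 51.9 times as abundant as Vipr2 by TPM. In mcPCs it was 2.13 times as abundant as Adcyap1r1.

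By TPM the order in VSMCs was Npy1r, Vipr2, Npy5r, Vipr1 and Adcyap1r1, and the last pair did not differ beyond counting error. In mcPCs the order was Npy1r, Adcyap1r1, Vipr1, Npy5r and Vipr2, and again the last pair did not differ beyond counting error.

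**Figure D2:**
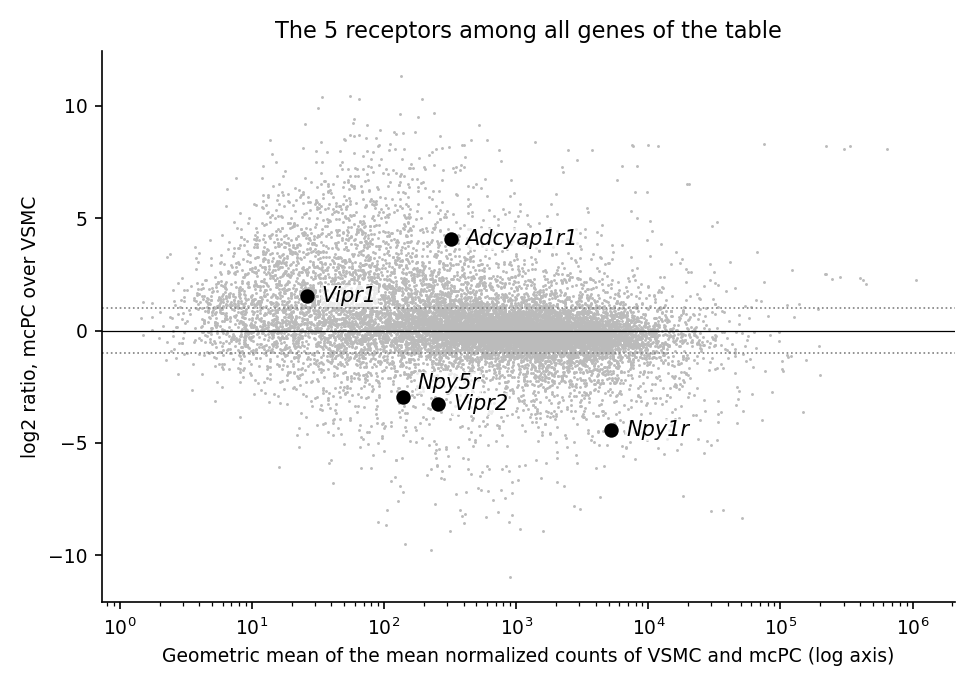
Log2 ratio of mean normalized counts of mcPCs over VSMCs against the geometric mean of both on a log axis, for the genes of the table with a symbol (grey) and the 5 receptors (black). Dotted lines mark 2-fold. Npy1r, Vipr2 and Npy5r lie under the lower line at -4.42, -3.25 and -2.97, and Adcyap1r1 lies over the upper line at 4.09. Vipr1 lies at 1.53 on this scale and at -0.28 by TPM as deposited.

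The size of the ratios depends on the scale. The median log2 ratio of all genes was 0.01 by normalized counts and -1.80 by TPM as deposited. On the TPM scale Npy1r came to -6.22, Vipr2 to -5.00, Npy5r to -4.78 and Adcyap1r1 to 2.30. All 4 kept their direction on each of the 7 scales plotted. Relative to the median gene of at least 0.8 TPM in VSMCs, the TPM ratios were -4.30 for Npy1r, -2.86 for Npy5r, -3.08 for Vipr2, 1.64 for Vipr1 and 4.22 for Adcyap1r1, close to those of the normalized counts.

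**Figure D3:**
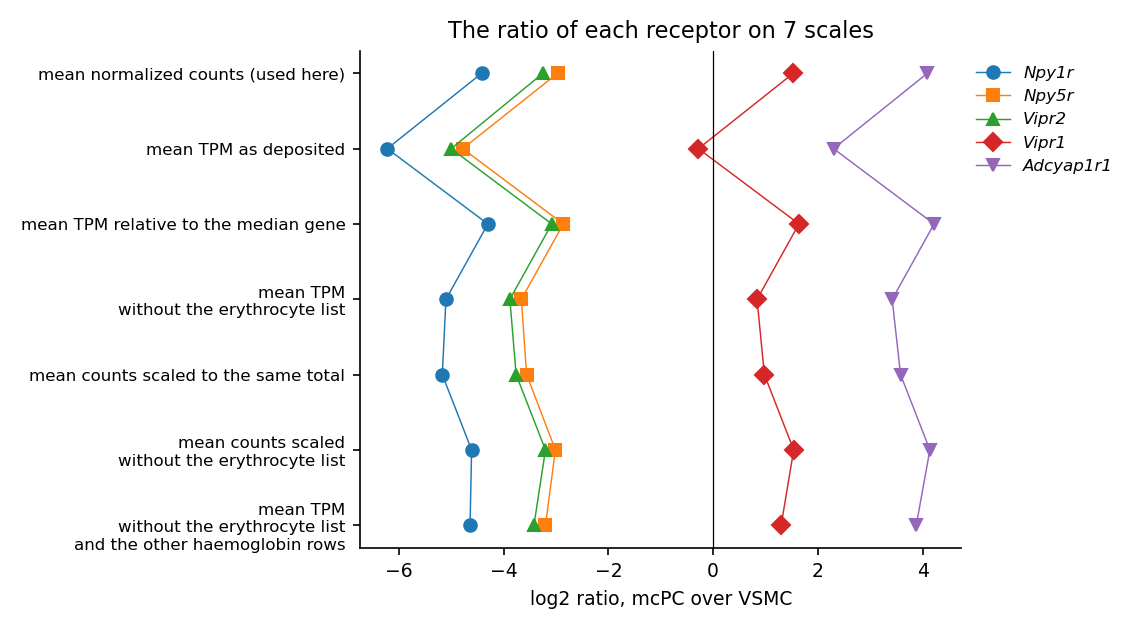
Log2 ratio of mcPCs over VSMCs of each receptor (colour and symbol) on 7 scales, from the mean normalized counts used here to TPM without erythrocyte and haemoglobin genes. Lines join the values of 1 gene. Every scale keeps Npy1r, Vipr2 and Npy5r left of 0 and Adcyap1r1 right of it, and Vipr1 crosses to -0.28 by TPM as deposited.

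Npy1r and Npy5r, lower together in mcPCs, are adjacent on rat chromosome 16 and read in opposite directions, and Vipr2 and Adcyap1r1 moved in opposite directions. The 250 bases before the start of these 4 genes are shown, to set the neighbouring pair and the opposed pair beside each other. They are from RefSeq on build GRCr8, 5′ to 3′ on the strand of the gene, and capitals mark matches to the motifs named after them. The table itself was built on another assembly, Rnor_6.0. The Npy1r window is chr16:27813388-27813637 on the minus strand and the Npy5r window chr16:27821805-27822054 on the plus strand. The Vipr2 window is chr6:143144273-143144522 and the Adcyap1r1 window chr4:85923921-85924170, both on the plus strand.
Npy1r: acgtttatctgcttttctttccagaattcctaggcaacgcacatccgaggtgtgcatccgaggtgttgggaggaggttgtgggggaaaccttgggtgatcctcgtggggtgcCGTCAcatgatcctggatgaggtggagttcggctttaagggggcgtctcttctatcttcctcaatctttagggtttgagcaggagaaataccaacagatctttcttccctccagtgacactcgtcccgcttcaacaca
Npy5r: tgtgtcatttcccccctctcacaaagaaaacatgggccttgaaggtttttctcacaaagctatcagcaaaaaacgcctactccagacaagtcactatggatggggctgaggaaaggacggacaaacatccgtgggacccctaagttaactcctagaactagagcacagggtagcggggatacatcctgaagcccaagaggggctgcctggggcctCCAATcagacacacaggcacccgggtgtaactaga
Vipr2: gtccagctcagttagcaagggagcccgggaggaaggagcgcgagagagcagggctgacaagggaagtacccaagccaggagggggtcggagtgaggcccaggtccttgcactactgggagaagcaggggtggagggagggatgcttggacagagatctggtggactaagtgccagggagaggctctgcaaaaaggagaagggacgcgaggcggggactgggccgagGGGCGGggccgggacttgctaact
Adcyap1r1: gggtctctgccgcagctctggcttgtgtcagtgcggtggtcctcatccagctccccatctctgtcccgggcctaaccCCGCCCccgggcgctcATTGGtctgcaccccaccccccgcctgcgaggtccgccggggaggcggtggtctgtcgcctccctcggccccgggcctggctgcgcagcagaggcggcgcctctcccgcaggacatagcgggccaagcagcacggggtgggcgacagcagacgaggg

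All 5 members matched a RefSeq promoter. A set of 6 motifs were searched on both strands. They were TGACG, the core of a cAMP response element, and its full form TGACGTCA, which contains it, together with CCAAT, the GC box GGGCGG, the RBPJ motif TGGGAA and the CArG box of serum response factor. Npy1r held the TGACG motif on the opposite strand, 138 to 134 bases before the start, and Npy5r held CCAAT 35 to 31 bases before it. The neighbouring pair thus shared none of these motifs in the windows. Vipr2 held a GC box 24 to 19 bases before the start. Adcyap1r1 held a GC box and a CCAAT, both on the opposite strand.

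In the window of Vipr1, not shown, TGACG overlapped a GC box by 1 base, and CCAAT and further GC boxes also occurred. Of 33469 promoters of the same length, TGACG occurred in 18.2%, CCAAT in 34.0% and the GC box in 30.5%. The CArG box, found in 1.5% of promoters, TGACGTCA, found in 1.59%, and TGGGAA, found in 22.1%, occurred in none of the 5 windows. The receptors also differed in base composition. GC content was 73.2% for Adcyap1r1, 72.0% for Vipr1, 64.0% for Vipr2, 52.0% for Npy5r and 51.6% for Npy1r, beside a median of 51.2%. The 2 genes with the higher normalized counts in mcPCs therefore had the most GC-rich windows of the 5, and held 22 (Adcyap1r1) and 27 (Vipr1) CpG sites, against 5 to 10 in the other 3 genes. By TPM as deposited Vipr1 does not belong to the higher genes.

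The patterns most like that of Npy1r were found by distance in the plane of log2 mean TPM in VSMCs and in mcPCs, over these 2 cell types only. The nearest genes were Lgalsl at a distance of 0.07, Sorbs2 at 0.13, AABR07029863.3 at 0.26, Net1 at 0.27 and Nrarp at 0.36. Lgalsl, a galectin-like gene, had 330.5 TPM in VSMCs against 4.75 TPM in mcPCs, beside 346 and 4.64 TPM for Npy1r. For Vipr2 the nearest were Trim7 at 0.15, Npy5r at 0.16, Cym at 0.20, Prss35 at 0.21 and Mycbpap at 0.23. Vipr2 and Npy5r thus stood beside each other among all genes as well.

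No ligand gene was among the listed genes. None of Npy, Pyy, Ppy, Vip and Adcyap1, the genes of the peptides that these receptors bind, had a row, so each was without a read in at least 1 sample or outside the transcript set.

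Set among other peptide receptors, Npy1r led in VSMCs. Of 81 receptor genes listed 26 had a row, and 13 of these reached 0.8 TPM in VSMCs and 8 in mcPCs as deposited. Without the erythrocyte genes 11 reached it in mcPCs, where Ednrb, Rxfp1 and Vipr1 joined, and 13 again in VSMCs. By TPM, Npy1r came 1st in VSMCs and 5th in mcPCs, Vipr2 7th and 15th, Npy5r 9th and 14th, Vipr1 16th and 11th, and Adcyap1r1 17th and 6th. Below Npy1r in VSMCs came Ednra, the endothelin A receptor, with 146 TPM, Avpr1a, the vasopressin V1a receptor, with 112 TPM, and Crhr2, a corticotropin-releasing hormone receptor, with 90.9 TPM. In mcPCs the leading receptors were Pth1r, the parathyroid hormone receptor, with 229 TPM, Ednra with 34.2 TPM, the neuromedin U receptor Nmur1 with 15.5 TPM and Calcrl, the shared subunit of CGRP and adrenomedullin receptors, with 14.1 TPM.

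Of the 26 receptors 10 were at least 2-fold lower in mcPCs and 8 at least 2-fold higher by normalized counts, where Vipr1 and Aplnr turn direction by TPM as deposited, beside 13.9% lower and 22.0% higher over all genes. The ratio of Npy1r, -4.42, stood between those of Crhr2, -4.49, and Avpr1a, -4.08. The positive ratio of Adcyap1r1, 4.09, stood beside that of Pth1r, 3.85, and below that of Nmur1, 6.37. In level, however, Adcyap1r1 reached 2.18 TPM in mcPCs, far under Pth1r.

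The other receptors of the secretin family, to which the VIP and PACAP receptors belong, varied as widely. Gcgr, the glucagon receptor, had 6.22 TPM in VSMCs, close to the 6.67 TPM of Vipr2, and 0.0490 TPM in mcPCs, with a log2 ratio of -5.04 [-5.82 to -4.35]. The log2 ratio of Calcrl was 0.86, although its TPM was lower in mcPCs. Glp1r, Glp2r and Gipr, receptors of gut peptides, stayed under 0.3 TPM in both cell types as deposited, and Gipr had 0.486 TPM in mcPCs without the erythrocyte genes. Sctr, Ghrhr, Pth2r, Calcr and Crhr1 had no row.

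**Figure D4:**
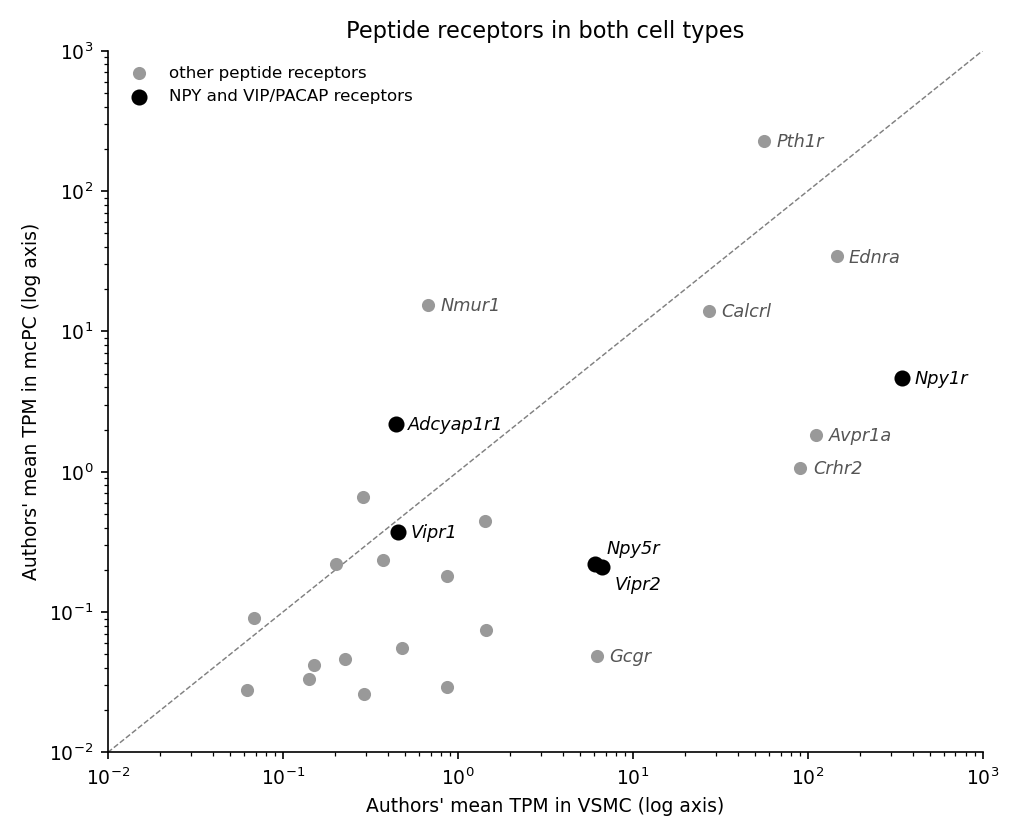
Authors' mean TPM in VSMCs (x) and mcPCs (y), both on log axes, of the 26 peptide receptors in the table. Black points are the NPY and VIP/PACAP receptors, grey points the other receptors, and the dashed line marks equal TPM. Npy1r lies furthest right at 346 TPM, Vipr2 and Npy5r lie together near 6 TPM in VSMCs, and Adcyap1r1 is above the line.

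The signalling genes through which these receptors act are given next, from lists of their G proteins, enzymes and channels, with counts read beside the 13.9% and 22.0% of all genes. For the Gi and Gβγ subunits, the arm of Y1 and Y5, 20 of 20 genes were in the table, 2 were at least 2-fold lower in mcPCs and 2 higher, and the median log2 ratio was -0.07 against 0.01 for all genes. Gnai2, the most abundant Gi α subunit, had 602 TPM in VSMCs against 143 TPM in mcPCs, with a log2 ratio of -0.27. Gnb1, a β subunit, and Gnai1 were the 2 lower genes, with -1.01 and -1.69. Gng2, a γ subunit, had the highest ratio of the expressed genes, 3.20. Of the list 16 genes were within 2-fold, as were 64.1% of all genes of the table.

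Of 12 genes for Gs and the adenylyl cyclases, the enzymes that VPAC and PAC1 receptors switch on, 10 were in the table, 3 were lower and 4 higher. Gnas, the Gs α subunit, had 860 TPM in VSMCs against 257 TPM in mcPCs, with a log2 ratio of 0.10. The cyclases differed far more between the cell types. Adcy3 had 279 TPM in VSMCs against 1.71 TPM in mcPCs, with a log2 ratio of -5.57. For Adcy5 the levels were 229 and 2.94 TPM, and the ratio was -4.46. Adcy6 was within 2-fold, with 216 and 42.2 TPM and a ratio of -0.54, and was the most abundant cyclase of mcPCs. Adcy7 had the highest ratio, 6.11, from 0.150 TPM in VSMCs against 3.08 TPM in mcPCs.

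Of 14 cAMP effectors, the kinase subunits, Epac proteins and transcription factors that respond to cyclic AMP, all were in the table, 7 were at least 2-fold lower in mcPCs, none was at least 2-fold higher, and the median log2 ratio was -1.02. Prkar1a, a regulatory subunit of protein kinase A, had 1005 TPM in VSMCs against 90.8 TPM in mcPCs, with a ratio of -1.65. Crem, a cAMP-responsive transcription factor, had 797 and 38.7 TPM and the lowest ratio of the list, -2.61. Rapgef3, which encodes Epac1, had a ratio of -2.19, and Rapgef4, which encodes Epac2, the highest, 0.67, though its TPM was lower in mcPCs.

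The phosphodiesterases, which degrade cyclic AMP, moved both ways. Of 16 genes 14 were in the table, 4 were lower and 6 higher, of which Pde2a and Pde1b turn direction by TPM as deposited. Pde3a, an isoform typical of vascular muscle, had 455 TPM in VSMCs against 5.72 TPM in mcPCs, and its log2 ratio of -4.50 was the lowest. Pde8b had the highest ratio, 3.26, with 20.5 and 55.4 TPM. Pde4c, with 149 and 33.0 TPM, was within 2-fold.

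Of 12 genes of phospholipase C and calcium store release, a further route of PAC1 and of vasoconstrictor receptors, 10 were in the table, 5 were lower and 2 higher. Itpr1, an IP3 receptor channel of the store, had 140 TPM in VSMCs against 5.51 TPM in mcPCs, with a ratio of -2.85. Plcb4, a phospholipase C, had 75.1 and 4.99 TPM and a ratio of -2.11. Ryr2 had the lowest ratio, -3.96, and Itpr3 the highest, 3.30.

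Of 15 symbols for receptor kinases, arrestins and RGS proteins, which end receptor signalling, 12 were in the table, 1 was lower and 2 higher, with a median log2 ratio of 0.12. Grk2 and Grk3 are listed under their older symbols Adrbk1 and Adrbk2. Rgs5 led in both cell types with 6298 and 1703 TPM and a ratio of -0.06. Rgs4 had a ratio of 0.44, although its TPM was lower in mcPCs, with 447 TPM in VSMCs against 171 TPM. Arrb1 had the lowest ratio, -1.22, and Rgs3 the highest, 3.41.

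Potassium channel genes were split by isoform. Of 8 listed genes 6 were in the table, 2 were lower and 4 higher, and none was within 2-fold. Among the higher genes, Kcnj5 and Kcnj9 were under 0.8 TPM in both cell types as deposited, with 0.44 and 0.34 TPM in mcPCs. Without the erythrocyte genes Kcnj5 had 0.966 TPM there. Kcnj3 and Kcnj6 had no row. Kcnj11, a pore subunit of ATP-sensitive channels, had 34.4 TPM in VSMCs against 0.0975 TPM in mcPCs, with a log2 ratio of -6.60. Its partner Abcc8 had 23.8 and 0.374 TPM, with a ratio of -4.22. The other pore subunit, Kcnj8, had 17.2 TPM in VSMCs against 345.5 TPM in mcPCs, with a ratio of 6.17, and its partner Abcc9 had 12.4 and 320 TPM, with 6.52. Kcnj8 and Abcc9 are also on the list of pericyte markers.

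Of 9 genes that cleave peptides or assist receptors, 6 were in the table, 1 was lower and 3 higher. Cpe, which trims peptide hormones, had the lowest ratio, -1.89, with 678 and 51.9 TPM, and Ece1, which makes endothelin, had -0.04. Ramp2, a partner of Calcrl and other secretin-family receptors, had the highest ratio, 4.25, with 1.58 and 8.89 TPM. Dpp4, whose product cuts NPY, had no row.

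**Figure D5:**
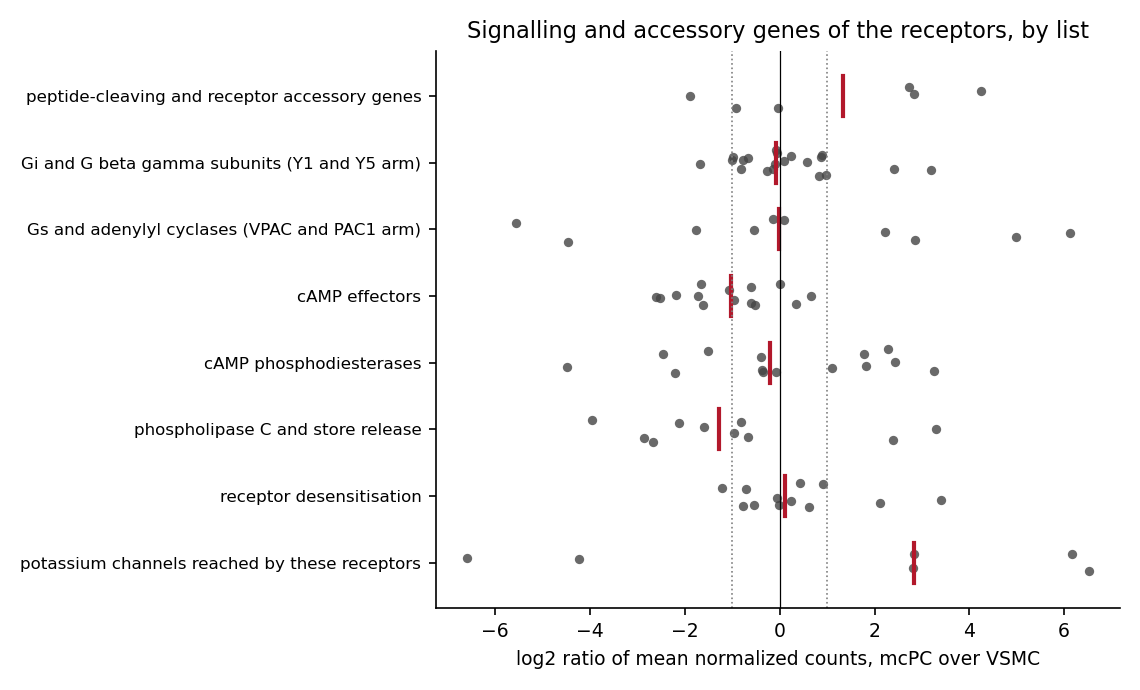
Log2 ratio of mean normalized counts of mcPCs over VSMCs for each gene (points, spread vertically by chance for legibility) of 8 lists of signalling and accessory genes, with the median of each list in red and dotted lines at 2-fold. Most Gi and Gβγ genes lie within the dotted lines, the Gs and cyclase genes spread from -5.57 to 6.11, the cAMP effectors have a median of -1.02 and the potassium channels fall into separate groups left and right of 0.

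Markers of other cell types also differed between the fractions and are given beside the higher value of Adcyap1r1, a gene that neurons and astrocytes are known to express. Counts of higher and lower markers are read beside the 22.0% and 13.9% of all genes. Of 14 neuronal markers 7 were in the table, all at least 2-fold higher in mcPCs by normalized counts, where Snhg11 turns direction by TPM as deposited. Their sum was 3.47 TPM in VSMCs against 23.8 TPM in mcPCs, or 52.3 TPM there without the erythrocyte genes. Tubb3 led in mcPCs with 15.7 TPM, and Syt1, Rbfox3, Slc17a7, Stmn2, Sst, Npy and Vip had no row. Of 10 astrocyte markers 6 were in the table, 5 of them higher in mcPCs, with sums of 14.6 TPM in VSMCs against 22.5 TPM in mcPCs (49.4 TPM without the erythrocyte genes). Aldoc made up most of the VSMC sum, and the other 5, set apart after their values were seen, summed to 1.04 TPM in VSMCs against 18.1 TPM in mcPCs (39.7 TPM). Slc1a3, which encodes the GLAST antigen used in the sort, led in mcPCs with 12.7 TPM, and Aldh1l1, Slc1a2, Mlc1 and Slc6a11 had no row.

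Endothelial markers, 13 of 15 in the table and 10 of them higher in mcPCs, summed to 613 TPM in VSMCs against 247 TPM in mcPCs (542.5 TPM without the erythrocyte genes) with Esam leading, and Pecam1 had no row. Esam and Slc2a1 made up most of these sums, and the other 11 markers, set apart after their values were seen, summed to 11.6 TPM in VSMCs against 39.2 TPM in mcPCs (86.1 TPM). Among these 11, Flt1 made up most of the VSMC sum and went the other way, with 8.20 TPM in VSMCs against 1.41 TPM in mcPCs (3.09 TPM). In the same order the sums were 0.893 and 12.4 TPM (27.2 TPM) for 6 of 10 microglial markers, led by Csf1r in mcPCs, and 0.808 and 23.5 TPM (51.7 TPM) for 2 of 11 leukocyte markers, led by Ptprc. For 7 of 9 oligodendrocyte markers they were 20.3 and 19.4 TPM (42.7 TPM), led by Cnp, so that their order depends on the scale. For 5 of 6 fibroblast markers they were 139 and 55.7 TPM (122 TPM), led by Col1a1. The other haemoglobin rows held a further 12.5% of the TPM of mcPCs. With these left out too, the endothelial and fibroblast sums would be higher in mcPCs, so their order also depends on the scale. By normalized counts at least 2-fold higher values in mcPCs were seen for 6 of the 6 microglial and 2 of the 2 leukocyte markers. They were also seen for 6 of the 7 oligodendrocyte and 4 of the 5 fibroblast markers, beside 22.0% of all genes. Cnp, Mog, Dcn and Lum turn direction by TPM as deposited. Of 5 markers shared by mural cells, led by Rgs5, 2 were lower and 1, Pdgfrb, was higher by normalized counts but not by TPM as deposited, with sums of 10619 and 2598 TPM (5708.5 TPM). A minimum of 0.8 TPM in VSMCs was the filter by which the study left out transcripts that unwanted cells could have brought into the mcPC samples, and Adcyap1r1 and Vipr1, at 0.443 and 0.454 TPM in VSMCs, are under it. The part of other cell types in the level of Adcyap1r1 and Vipr1 in mcPCs was not tested.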

How the data were processed

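The series gives 1 table of 14607 genes for 3 VSMC and 3 mcPC samples. Reads had been cleaned by the authors in Eoulsan and assigned by Salmon 0.8.0 to Ensembl cDNAs of build Rnor_6.0, with gene totals from tximport. Genes had been kept where every sample had a read. The deposited TPM values are the authors' means of each cell type. The deposited estimated counts are the authors' means per sequencing run, and 69.8% (VSMCs) and 71.5% (mcPCs) of them are within 0.01 read of a whole number when summed over 12 runs. The deposited normalized counts are signal values, the authors' counts divided by DESeq2 normalization factors and averaged. Mean effective lengths are also deposited by the authors. Further columns with their fold changes, standard errors and p-values were not used.

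Ratios of mean normalized counts and exact 95% counting intervals (Poisson for levels, binomial for ratios) were computed with Python 3.11.15, numpy 2.4.6, pandas 2.3.3 and scipy 1.17.1, and figures with matplotlib 3.10.9. Reads were taken as mean counts times 4 runs. Because only means were at hand, the planned test of sample counts was left out. Of rows sharing a symbol the one with most reads was used, and 13 genes had no symbol. The interval step was tested on simulated data. The members and lists were chosen with earlier results of these data known. The genes named are the members, the leading receptors, the NPY and secretin-family receptors, the 2 most abundant genes and the extreme ratios of each list among genes of at least 0.8 TPM in either cell type, subunits and isoforms needed for a role, and the 5 genes nearest to Npy1r and Vipr2. Other names are lists' markers. Alternatives were 7 planned settings of scale and pseudocount, filters on low values and 1 scale added after seeing the data.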

Additional observations from a re-analysis of the deposited data

How the results depend on the processing

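Npy1r, Npy5r, Vipr2 and Adcyap1r1 kept their direction and stayed past 2-fold under all 8 alternatives to the normalized counts. By TPM as deposited the log2 ratios were -6.22 for Npy1r, -4.78 for Npy5r, -5.00 for Vipr2, 2.30 for Adcyap1r1 and -0.28 for Vipr1, whose direction turned. By TPM without the 12 erythrocyte genes they were -5.10, -3.66, -3.88, 3.42 and 0.84 in the same order. By mean counts scaled to the same total they were -5.17, -3.56, -3.76, 3.58 and 0.98, so that Vipr1 was under 2-fold by both. Npy1r moved beyond its counting interval to -4.30 by TPM relative to the median gene and to -4.61 by counts without the erythrocyte genes. The erythrocyte list missed 4 haemoglobin rows, and a scale without these too was added after seeing the data. It left out 66.9% of the TPM of mcPCs and gave -4.64 for Npy1r, -3.20 for Npy5r, -3.42 for Vipr2, 3.88 for Adcyap1r1 and 1.30 for Vipr1. A pseudocount of 1 or 10 kept each ratio within its counting interval.

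The 2034 genes at least 2-fold lower in mcPCs became 10932 by TPM as deposited and 4213 by counts scaled to the same total. The 3210 higher genes became 1193 by TPM as deposited and 1601 among genes of at least 0.8 TPM in VSMCs, a filter that removes Vipr1 and Adcyap1r1. No paired analysis was possible because the table gives means of each cell type only, and for the same reason no sample was left out in turn. Counting intervals say nothing of the spread between isolations. Depth limits Vipr1 most, with 64 and 98 reads over the 3 samples of VSMCs and mcPCs.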

Other observations

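The effective length of Npy1r, which rests on the mix of transcripts assigned to the gene, was 2581 bases in VSMCs and 2242 bases in mcPCs. It decreased by 13.1%, a larger change than for 97.3% of genes, while that of Npy5r did not change. Values per transcript were not used here.

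The genes nearest to the other 3 receptors in the plane of log2 mean TPM were looked up after their values were seen. Nearest to Adcyap1r1 were S100b, on the astrocyte list used here, at a distance of 0.12, Rassf4 at 0.16, Tnfaip8l2 at 0.19, Fes at 0.21 and Srgap1 at 0.23. Closeness in this plane does not show which cells express a gene. S100b had 0.455 TPM in VSMCs against 2.36 TPM in mcPCs, beside 0.443 and 2.18 TPM for Adcyap1r1. Nearest to Npy5r were Mycbpap at 0.09 and Pi15 at 0.13, with Vipr2 the third at 0.16. Nearest to Vipr1 was Fam132a at 0.08.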
